A study of Mus musculus with 9 samples.

Results

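The endoplasmic reticulum chaperones and their partners were followed through adipocyte differentiation of the mouse line 3T3-L1, whose fibroblast-like cells turn into fat-storing cells under a hormone cocktail. A fixed list of 33 gene symbols, looked up among the 19094 genes of the expression tables, gave 33 members in 4 functional groups: 15 folding genes, 4 genes of stress sensing (3 sensors and the factor Xbp1), 7 degradation genes and 7 translocation genes. RNA had been sequenced from pooled cells of 3 stages, namely day 0, day 4 and day 8, with 3 samples per day (9 samples). Day 0 cells were confluent preadipocytes that had not yet met the cocktail. Day 4 cells had received dexamethasone, IBMX and insulin and then maintenance medium with insulin. That medium was renewed on day 4, and day 8 cells had spent 4 days in the renewed medium. All groups were the same line without a genetic change. Day, medium, time since the last medium change and time in culture therefore cannot be told apart. No source states whether the 3 samples of a day came from separate cultures, and the p-values therefore measure the spread between these samples, which may be technical. The early phase compared day 4 with day 0, the late phase day 8 with day 4, and the whole process day 8 with day 0.

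Secreted and membrane proteins enter the endoplasmic reticulum through the Sec61 channel and are folded there by chaperones, by lectins that hold glycoproteins and by disulfide isomerases. Proteins that fail to fold are drawn back into the cytosol and degraded. The sensors IRE1, PERK and ATF6 watch the folding load in the lumen and set off the unfolded protein response, in which IRE1 splices the mRNA of the transcription factor XBP1. A mature fat cell secretes adipokines in quantity, so this machinery serves it as a secretory cell.

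Many chaperone genes carry the endoplasmic reticulum stress element (ERSE) in the promoter, a CCAAT box for NF-Y followed after 9 bases by CCACG, where ATF6 and XBP1 bind. A second form, ERSE-II, joins ATTGG and CCACG across 1 base. Promoter windows from RefSeq (build GRCm38.p6) of 250 bases before to 50 bases after the transcription start were searched on both strands, and 27 of the 33 members had a window. An ERSE occurred in 9 of these 27 members against 37 of all 27025 genes with a window (0.137%), and an ERSE-II in 2 members against 12 genes (0.0444%). By group, ERSE matches lay in 7 of 13 folding genes, 2 of 6 degradation genes, 0 of 3 sensor genes and 0 of 5 translocation genes with a window. The core TGACGTGG, to which XBP1 also binds, occurred in 0 of the 27 members and in 0.714% of all genes. A match describes letters in a window and no more. Distances count from the RefSeq start. The bases just after that start were found in a GENCODE transcript of the gene for 23 of 28 windows. Those of Pdia4, Dnajc3, Xbp1, Herpud1 and Derl3 were not found. The element is known from chaperone genes, and the list holds such genes, so its share among the members is no independent finding. The matches of the members are shown with 10 flanking bases on either side and with the element in capitals. Each is read on the strand that carries CCAAT or ATTGG first.
Hspa5, chr2:34772015-34772053, plus strand, 65 bases before the start: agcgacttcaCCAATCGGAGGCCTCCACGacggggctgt
Hsp90b1, chr10:86705628-86705666, minus strand, 212 bases before the start: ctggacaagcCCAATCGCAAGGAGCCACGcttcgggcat
Hsp90b1, chr10:86705523-86705561, plus strand, 107 bases before the start: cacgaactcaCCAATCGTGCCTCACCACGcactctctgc
Calr, chr8:84847065-84847103, plus strand, 162 bases before the start: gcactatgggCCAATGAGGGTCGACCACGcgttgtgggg
Canx, chr11:50325790-50325828, minus strand, 145 bases before the start: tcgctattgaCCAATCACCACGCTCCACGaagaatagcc
Pdia6, chr12:17266481-17266519, plus strand, 98 bases before the start: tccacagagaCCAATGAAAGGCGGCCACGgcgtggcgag
Dnajc3, chr14:118937817-118937855, plus strand, 105 bases before the start: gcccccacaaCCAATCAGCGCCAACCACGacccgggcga
Creld2, chr15:88819510-88819548, minus strand, 126 bases before the start: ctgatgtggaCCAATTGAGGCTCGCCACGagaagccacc
Syvn1, chr19:6046522-6046560, plus strand, 44 bases before the start: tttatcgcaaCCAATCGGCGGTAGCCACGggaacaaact
Derl3, chr10:75893232-75893270, minus strand, 156 bases before the start: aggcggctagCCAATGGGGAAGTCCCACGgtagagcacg
Herpud1 (ERSE-II), chr8:94386367-94386397, plus strand, 52 bases before the start: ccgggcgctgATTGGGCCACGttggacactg
Dnajb11 (ERSE-II), chr16:22857842-22857872, plus strand, 8 bases after the start: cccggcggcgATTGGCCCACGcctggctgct

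The 9 samples held between 18216114 and 20452144 expected counts, with a median of 20182731, so that depth differed little between them. The summed level of 10 adipocyte markers was 149, 144 and 144 FPKM (fragments per kilobase of transcript, scaled to the depth of the sample) in the day 0 samples, 6018, 7122 and 8581 FPKM on day 4, and 8933, 9773 and 9690 FPKM on day 8. Lpl, the lipoprotein lipase, was the most abundant of them on day 0 and Fabp4, the fatty acid binding protein of fat cells, on day 4 and day 8, and 10 of 10 were higher on day 4 than on day 0. The 8 preadipocyte markers, led by Fn1 on day 0 and by Dlk1 on day 8, summed to 2722 to 2854 FPKM on day 0, 703 to 831 FPKM on day 4 and 1202 to 1214 FPKM on day 8. Early, 7 of these 8 were lower and 1 higher, and late, 5 were higher and 1 lower. These sums moved with the days in every comparison below, and their part in the results was not tested. In bulk RNA, fewer cells of a type and less RNA per cell cannot be told apart. The labels call the cells adipocytes on every day, although the day 0 samples carried little of the adipocyte markers.

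The extraction text of the labels names DRG tissue rather than cultured cells, so markers of sensory neurons and Schwann cells were examined too. The 10 sensory neuron markers summed to 1.8 to 3.17 FPKM, with Avil the most abundant on day 0 and Snap25 on day 4 and day 8, and 8 of 10 below 1 FPKM in every sample. The sodium channel Scn10a reached 0.01 FPKM. The 7 Schwann cell markers summed to 130 to 175 FPKM, of which Pmp22, also made by fibroblasts, left 8.17 to 10.1 FPKM to the others. Markers of macrophages (6 genes, led by Cd68 or Lyz2) summed to 1.95 to 4.04 FPKM, those of endothelium (5 genes, led by Pecam1 on day 4 and day 8) to 0.22 to 0.57 FPKM and those of skeletal muscle (5 of 6 genes, led by Des) to 4.39 to 10.5 FPKM.

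The members were abundant genes. Their median level was 7.10 on the log2 CPM scale (counts scaled to the library size, averaged over the 9 samples), against 4.82 for the 13154 genes that passed the filter on low counts, and 32 of the 33 members passed it. The exception was Derl3, a retrotranslocation factor of secretory tissues, which stood at 0.04 FPKM in 1 day 0 sample, at 0.08, 0.04 and 0.04 FPKM in the day 4 samples and was not listed in the other 5 samples. The spread between the samples of a day was small, with a median coefficient of variation of 3.74% over the 32 members against 6.13% over the genes tested. Ern1, which encodes IRE1 and had the lowest FPKM of the tested members, was the noisiest at 17.5%. Levels per transcript length, in FPKM, spanned from 2.13 for Ern1 to 1172 for Calr, as the plot of members by sample shows.

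**Figure D1:**
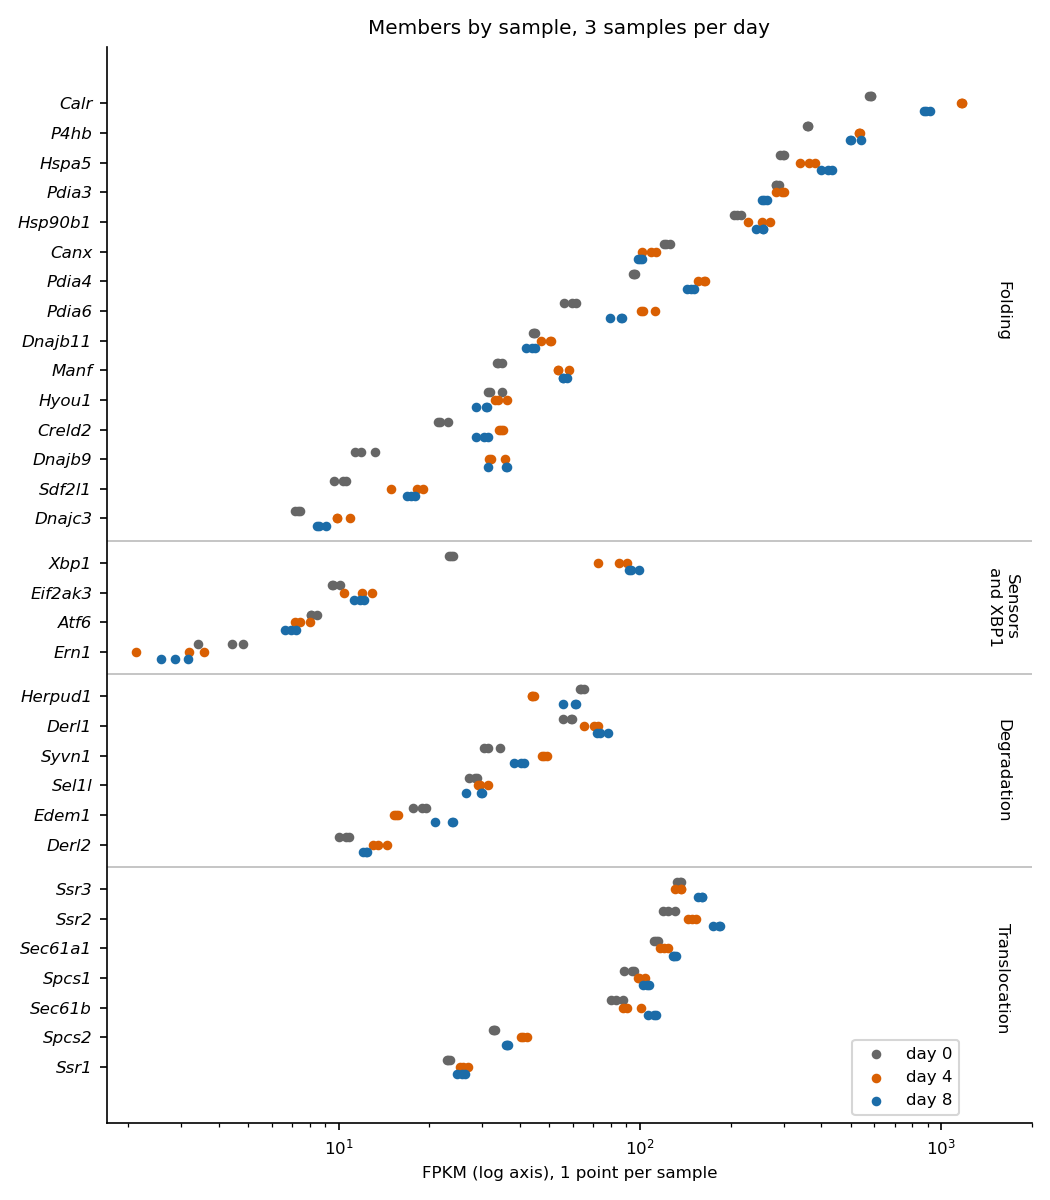
FPKM of the 32 tested members in each of the 9 samples (log axis, 1 point per sample, grey day 0, orange day 4, blue day 8), grouped by function and ordered by the day 0 level. Calr lies highest, between 575 and 1172 FPKM, and the day 0 points of Xbp1 and Dnajb9 lie apart from those of day 4 and day 8.

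In the early phase most of the listed members were upregulated. At day 4, 26 of the 32 tested members were higher than on day 0 (81.2%) and 4 were lower (12.5%), at an adjusted p under 0.05. Among all genes tested, 35.5% were higher and 33.7% lower. The median log2 fold change was 0.32 over the members and 0.02 over all genes, so that most changes were modest. A fold change above 2 was reached upwards by Xbp1, Dnajb9 and Calr, 3 of 32 members against 9.77% of all genes, and downwards by 0 members against 7.98%, the lowest fitted change being -0.47 on the log2 scale. Of the 30 calls, 24 held in each of 18 alternative settings. The lower calls dropped from 4 to 2 without day 0 replicate 1 and without day 0 replicate 3.

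Among the 15 folding genes, 14 were higher (93.3%, all genes tested 35.5%) and 1 lower (6.67%, all genes 33.7%) on day 4. Their median log2 fold change was 0.64. Dnajb9 (NCBI gene 27362), the J-domain co-chaperone ERdj4 and a classic target of XBP1, measured 13.2, 11.3 and 11.8 FPKM on day 0, 31.5, 32.1 and 35.6 FPKM on day 4, and 31.3, 36.1 and 36.1 FPKM on day 8. Each day 4 sample lay far above each day 0 sample, while the day 4 and day 8 samples overlapped. The early change was 2.86-fold (log2 1.51, SE 0.08; edgeR, adjusted p = 5.9e-11).

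Calr (NCBI gene 12317), the calcium-binding lectin calreticulin, was the most abundant member. It stood at 585, 586 and 575 FPKM on day 0, at 1165, 1167 and 1172 FPKM on day 4, and at 890.3, 875 and 917 FPKM on day 8. The 3 days did not overlap, and day 4 was the peak. The early rise was 2.10-fold (log2 1.07, SE 0.04; edgeR, adjusted p = 3.3e-12). Canx encodes calnexin, the membrane-bound counterpart of calreticulin, and went the other way, with 122.9 ± 2.61 FPKM on day 0 and 108.1 ± 5.84 FPKM on day 4 (SD, n = 3 per day). Its log2 fold change of -0.12 (SE 0.05) passed narrowly (edgeR, adjusted p = 0.034). That call was lost without any 1 of day 0 replicates 1, 2 and 3 or of day 4 replicate 2 and without a filter, and its adjusted p ran from 0.0024 to 0.11 over the 18 alternatives. The ratio of Calr to Canx FPKM was 4.74 ± 0.0619 on day 0, 10.8 ± 0.58 on day 4 and 8.95 ± 0.282 on day 8 (SD, n = 3). The days did not overlap in this ratio. An exact two-sided permutation test gave p = 0.1 in each comparison, the smallest that 3 against 3 samples allow, and 0.12 after adjustment over 6 comparisons of ratios.

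The disulfide isomerases did not move as one. Pdia6 rose 1.87-fold and Pdia4 1.77-fold, and P4hb, the isomerase that is also a subunit of the collagen hydroxylase, rose 1.55-fold. P4hb measured 358, 361 and 359.8 FPKM on day 0 and 537, 533 and 532 FPKM on day 4. Pdia3, the partner of calreticulin and calnexin on glycoproteins, differed by 1.08-fold (edgeR, adjusted p = 0.035), and its day 0 and day 4 samples overlapped. The Pdia3 call was lost on leaving out any 1 of 6 samples, namely day 0 replicates 1 and 3, day 4 replicates 1 and 3 and day 8 replicates 2 and 3 (adjusted p 0.043 to 0.099 over the samples left out), and without a filter. It was also lost with library size alone and both limma fits on FPKM, where the log2 change was 0.04 instead of 0.11 (adjusted p 0.015 to 0.42 over all alternatives).

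Hspa5 (NCBI gene 14828), which encodes BiP, the central Hsp70 of the lumen, measured 292, 299.5 and 297 FPKM on day 0, 363, 339 and 381 FPKM on day 4, and 398, 421 and 434 FPKM on day 8. Every day lay above the one before without overlap. The early rise was 1.27-fold (log2 0.35, SE 0.05; edgeR, adjusted p = 2e-05). The Hsp90 of the lumen, Hsp90b1, rose by a like amount, 1.25-fold. The ratio of Hspa5 to Hsp90b1 was 1.41 ± 0.0216 on day 0, 1.44 ± 0.0386 on day 4 and 1.66 ± 0.027 on day 8 (SD, n = 3). The day 8 samples lay above all others in this ratio, and the exact permutation test gave p = 0.4 early and p = 0.1, the smallest possible, late and over the whole process (0.12 after adjustment).

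The cofactors of BiP differed among themselves. Sdf2l1, which works with the J-domain proteins, rose 1.79-fold. Dnajc3, the J-domain inhibitor of PERK, rose 1.47-fold, and Dnajb11, a J-domain protein that hands clients to BiP, 1.16-fold. Hyou1, the nucleotide exchange factor of BiP, measured 32.62 ± 1.94 FPKM on day 0 and 34.29 ± 1.66 FPKM on day 4 (SD, n = 3), with overlapping samples. Its fold change of 1.10 passed (edgeR, adjusted p = 0.044), but the call was lost on leaving out any 1 of 6 samples, namely day 0 replicates 2 and 3, day 4 replicates 1 and 2 and day 8 replicates 2 and 3, and with RLE factors, DESeq2, library size alone and both limma fits on FPKM (log2 0.07 to 0.19 and adjusted p of 0.012 to 0.28 over the alternatives). The stress-induced secreted proteins Manf and Creld2 rose 1.69-fold and 1.64-fold, and neither overlapped between day 0 and day 4.

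Among the sensors, Xbp1 stood apart. Xbp1 (NCBI gene 22433) measured 24.0, 23.3 and 23.6 FPKM on day 0, 72.5, 85.2 and 90.2 FPKM on day 4, and 91.7, 93.3 and 99.3 FPKM on day 8. All 3 days were separate, and most of the rise lay between day 0 and day 4. The early change was 3.67-fold (log2 1.87, SE 0.07; edgeR, adjusted p = 1.1e-12), the largest among the members. The day 4 samples had the same order in Xbp1 as in the summed adipocyte markers, a relation of 3 samples that was not tested. On day 8 the order differed, replicate 3 being the highest in Xbp1 and replicate 2 in the markers (9773 FPKM). Ern1, Atf6 and Eif2ak3 had the reverse order on day 4. The values are per gene and do not separate the spliced from the unspliced Xbp1 mRNA.

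The sensors themselves moved little beside it. Eif2ak3, which encodes PERK, rose 1.27-fold (edgeR, adjusted p = 0.00038). Atf6 measured 8.233 ± 0.214 FPKM on day 0 and 7.543 ± 0.458 FPKM on day 4 (SD, n = 3) and did not pass (edgeR, adjusted p = 0.38). Ern1, the gene of IRE1, which splices Xbp1, measured 4.80, 3.40 and 4.43 FPKM on day 0 and 3.56, 3.19 and 2.13 FPKM on day 4. These samples overlapped. Its log2 fold change of -0.44 (SE 0.16) passed (edgeR, adjusted p = 0.021), but not without day 0 replicate 1, day 0 replicate 3 or day 4 replicate 3, with an adjusted p of 0.004 to 0.11 over the alternatives.

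The degradation genes split in direction. Of the 6 tested, 4 were higher (66.7%) and 2 lower (33.3%) on day 4, with a median log2 fold change of 0.24. Among all genes tested, 35.5% were higher and 33.7% lower, so the lower share of this group was near that of all genes. Syvn1, the ubiquitin ligase HRD1, rose 1.56-fold, and the Derlins Derl2 and Derl1 rose 1.37-fold and 1.25-fold. Sel1l, the adaptor of HRD1, rose 1.12-fold (edgeR, adjusted p = 0.023), a call lost without day 0 replicate 2, day 4 replicate 1 or day 4 replicate 2. It was also lost with library size alone and both limma fits on FPKM, where the log2 change was 0.09 instead of 0.16 (adjusted p 0.011 to 0.16 over the alternatives).

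Herpud1 (NCBI gene 64209), a stress-induced scaffold of the HRD1 complex, measured 65.3, 63.0 and 63.6 FPKM on day 0, 44.4, 44.0 and 44.0 FPKM on day 4, and 61.3, 55.4 and 60.9 FPKM on day 8. The day 4 samples lay below all others. The early fold change was 0.722 (log2 -0.47, SE 0.05; edgeR, adjusted p = 3.4e-07). Edem1 (NCBI gene 192193), the lectin that takes misfolded glycoproteins out of the folding cycle, measured 19.5, 18.9 and 17.7 FPKM on day 0, 15.7, 15.5 and 15.3 FPKM on day 4, and 20.9, 24.0 and 23.8 FPKM on day 8. Day 4 was the low point here as well, with no overlap between the 3 days. The early log2 fold change of Edem1 was -0.20 (SE 0.06; edgeR, adjusted p = 0.0072).

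Most translocation genes rose by small steps early. Of the 7, 6 were higher (85.7%, all genes tested 35.5%) and 0 lower (all genes 33.7%) on day 4. The changes lay between 0.07 and 0.39 on the log2 scale, with a median of 0.21. The subunit of the signal peptidase Spcs2 rose the most, 1.31-fold, and Spcs1 of the same enzyme 1.14-fold. Ssr2 of the translocon-associated (TRAP) complex rose 1.25-fold and Ssr1 1.18-fold, while Ssr3 of that complex stood at 134.9 ± 1.89 FPKM and 135 ± 3.31 FPKM (SD, n = 3) and did not pass (edgeR, adjusted p = 0.16). The channel subunits Sec61b and Sec61a1 rose 1.16-fold and 1.11-fold, the call of Sec61a1 being lost with library size alone (edgeR, adjusted p = 0.077, and 0.0014 to 0.077 over the alternatives). Of the 50-base stretches of Sec61b transcripts, 17.4% also occur in other genes, the highest such share among the members. Gm10320 shared the most of them.

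**Figure D2:**
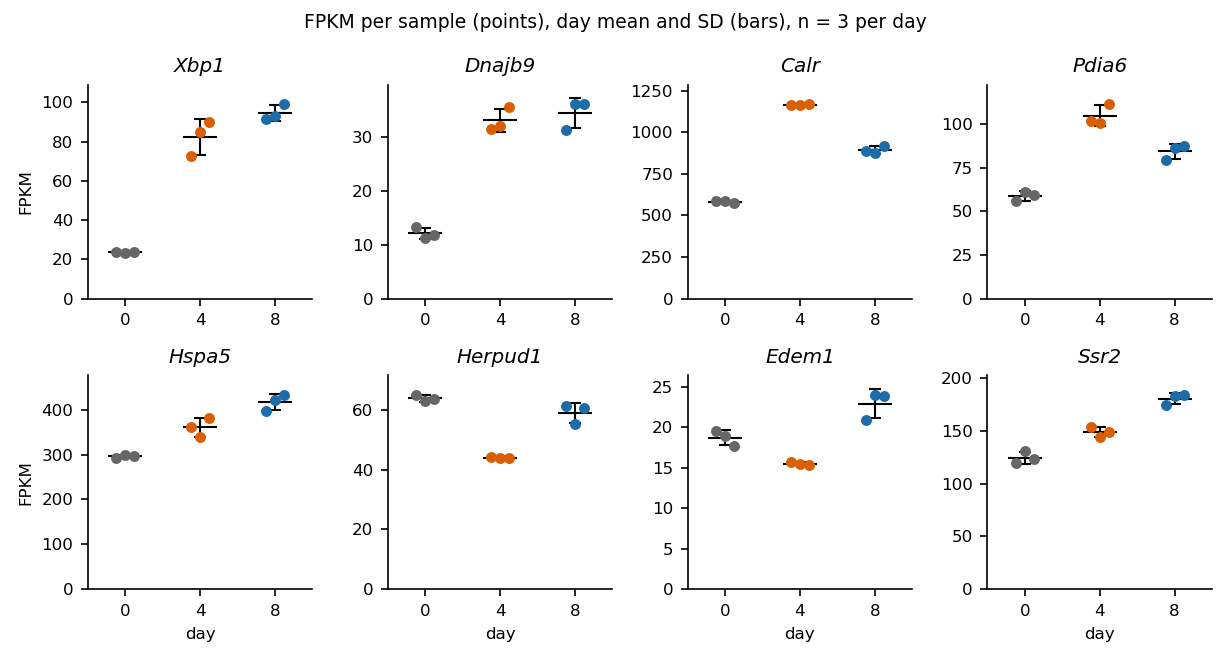
FPKM of 8 members on day 0, day 4 and day 8 (points samples, bars day mean and SD, n = 3, linear axes from 0). Xbp1 and Dnajb9 step up on day 4, Calr and Pdia6 peak on day 4, Herpud1 and Edem1 are lowest on day 4, and Hspa5 and Ssr2 climb through day 8.

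In the late phase about as many members rose as fell. From day 4 to day 8, 9 of the 32 members rose (28.1%) and 8 fell (25%), where 22.5% of all genes tested rose and 22.7% fell. The median log2 fold change was 0.01 over the members and -0.01 over all genes. A fold change above 2 was reached by 0 members in either direction (all genes 4.24% upwards and 2.81% downwards), the largest fitted change being 1.53-fold. Scaling by library size alone gave 8 higher and 11 lower calls. The lower calls numbered 4 to 5 without any 1 of the day 8 samples and 5 under DESeq2, and 11 of the 17 calls held in all 18 alternatives.

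Folding genes accounted for 6 of the 8 falls. In that group 40% fell and 6.67% rose, beside 22.7% and 22.5% of all genes tested. Calr fell to 0.790 of its day 4 level (log2 -0.34, SE 0.04; edgeR, adjusted p = 1.1e-05), and Pdia6 fell to 0.831 (edgeR, adjusted p = 0.00087). The falls of Pdia3, Dnajb11, Dnajc3 and Creld2 lay between -0.18 and -0.14 on the log2 scale. Those were the fragile calls. Pdia3 lost its call without day 8 replicate 2 or 3 and Dnajb11 without day 4 replicate 1 or day 8 replicate 2, with adjusted p of 0.0023 to 0.12 and of 0.0036 to 0.1 over the alternatives. Dnajc3 lost it without day 4 replicate 3 or day 8 replicate 1 or 3 (adjusted p 0.0037 to 0.077 over the alternatives), and Creld2 without any 1 of the 6 samples of both days (0.0059 to 0.17). DESeq2 also ended the calls of Dnajb11, Dnajc3 and Creld2, and RLE factors and the lack of a filter that of Creld2. Hspa5 was the folding gene that rose, by 1.20-fold (log2 0.26, SE 0.05; edgeR, adjusted p = 0.00083). The other 8 folding genes did not pass, among them Dnajb9 (log2 0.11, SE 0.07), P4hb (-0.01, SE 0.05) and Manf (0.07, SE 0.05). Pdia4 (-0.08) and Hyou1 (-0.14) were among them too, but were called lower with library size alone and in both limma fits on FPKM, and Hyou1 also without day 0 replicate 1 or day 4 replicate 3 (adjusted p 0.013 to 0.4 and 0.011 to 0.25 over the alternatives).

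The largest late rises belonged to the degradation genes that had been low on day 4. Edem1 rose 1.53-fold (log2 0.61, SE 0.06; edgeR, adjusted p = 4.7e-07) and Herpud1 1.38-fold (log2 0.47, SE 0.05; edgeR, adjusted p = 1.1e-06). Syvn1 moved the other way and fell to 0.853 of its day 4 level (edgeR, adjusted p = 0.0026). Derl1 rose 1.11-fold with overlapping samples, a call lost without day 4 replicate 1 or day 8 replicate 2 or 3 and with library size alone and both limma fits on FPKM (adjusted p 0.014 to 0.14 over the alternatives). Sel1l did not pass, nor did Derl2, which was called lower with library size alone and in both limma fits (adjusted p 0.031 to 0.33 over the alternatives). Among the sensors, Xbp1 rose by another 1.18-fold (edgeR, adjusted p = 0.0066), and Ern1, Atf6 and Eif2ak3 did not pass.

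Of the 7 translocation genes, 4 rose (57.1%), 1 fell (14.3%) and 2 did not pass in the late phase. Among all genes tested, 22.5% rose and 22.7% fell. Ssr2 measured 120, 131 and 124 FPKM on day 0, 153, 144 and 149 FPKM on day 4, and 174, 183 and 184 FPKM on day 8, with each day above the one before. It rose 1.25-fold in each phase (late, edgeR, adjusted p = 4.3e-05). Ssr3, level until day 4, rose 1.22-fold in the late phase (edgeR, adjusted p = 4.1e-05). Sec61b and Sec61a1 rose 1.22-fold and 1.12-fold. Spcs2 fell to 0.908 of its day 4 level, but not past the threshold without day 4 replicate 2 or day 8 replicate 1 or 3 (adjusted p 0.0018 to 0.077 over the alternatives), and Ssr1 and Spcs1 did not pass, Spcs1 being called higher with RLE factors (adjusted p = 0.042 by edgeR, and 0.042 to 0.35 over the alternatives).

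Between both ends of the time course, 25 of the 32 members were higher on day 8 than on day 0 (78.1%) and 3 lower (9.38%), where 34.8% of all genes were higher and 36.2% lower. The median log2 fold change was 0.38 over the members and -0.02 over all genes. Above 2-fold stood Xbp1, at 4.34-fold, and Dnajb9, at 3.08-fold, 2 of 32 members against 10.3% of all genes, and 0 members lay below that fold downwards against 7.7%, the lowest fitted change being -0.45 on the log2 scale. Of the folding genes 11 were higher and 1 lower, of the sensors 2 and 2, of the degradation genes 5 and 0, and of the translocation genes 7 and 0. The 3 comparisons share their samples, so the whole change is the sum of the other two and no separate evidence.

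The 4 members that did not pass were Herpud1, Hyou1, Pdia3 and Dnajb11. Herpud1 had a whole log2 fold change of -0.00 (SE 0.05) after called changes of opposite sign in the early and late phases. Hyou1 stood at -0.00 (SE 0.06), Pdia3 at -0.03 (SE 0.04) and Dnajb11 at 0.08 (SE 0.05). The FPKM of Herpud1, Hyou1 and Pdia3 was lower in every day 8 sample than in every day 0 sample nonetheless, because FPKM is scaled to the total while the fit used TMM factors, which were 1.04 to 1.05 on day 0 and 0.954 to 0.974 on day 8. With library size alone, Herpud1 and Pdia3 were called lower (adjusted p = 0.048 and 0.0086 by edgeR) and the lower calls numbered 5.

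The 3 lower calls were Canx, Ern1 and Atf6, and 1 was left without any 1 of day 0 replicates 1 and 3 and day 8 replicates 1 and 2. Canx fell to 99.99 ± 1.51 FPKM (SD, n = 3), a log2 fold change of -0.18 (edgeR, adjusted p = 0.0022). Ern1 lost its call without any 1 of day 0 replicates 1 and 3 and day 8 replicates 1 and 2 (adjusted p 0.0035 to 0.092 over the alternatives). Atf6, at a log2 fold change of -0.14 (edgeR, adjusted p = 0.049), lost it in 12 of the 18 alternatives, among them RLE factors, DESeq2, edgeR's exact test, both other filters, the replicate block and the omission of day 0 replicate 1, 2 or 3, day 4 replicate 2 or day 8 replicate 1 or 2 (adjusted p 0.00097 to 0.2). The rise of Sel1l (1.10-fold) was lost without day 0 replicate 2 or 3 or day 8 replicate 2 or 3 (adjusted p 0.0039 to 0.14 over the samples left out). It was also lost with library size alone and both limma fits on FPKM, where the log2 change was 0.03 (adjusted p = 0.63) instead of 0.14. The other 25 whole-process calls held in all 18 alternatives.

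**Figure D3:**
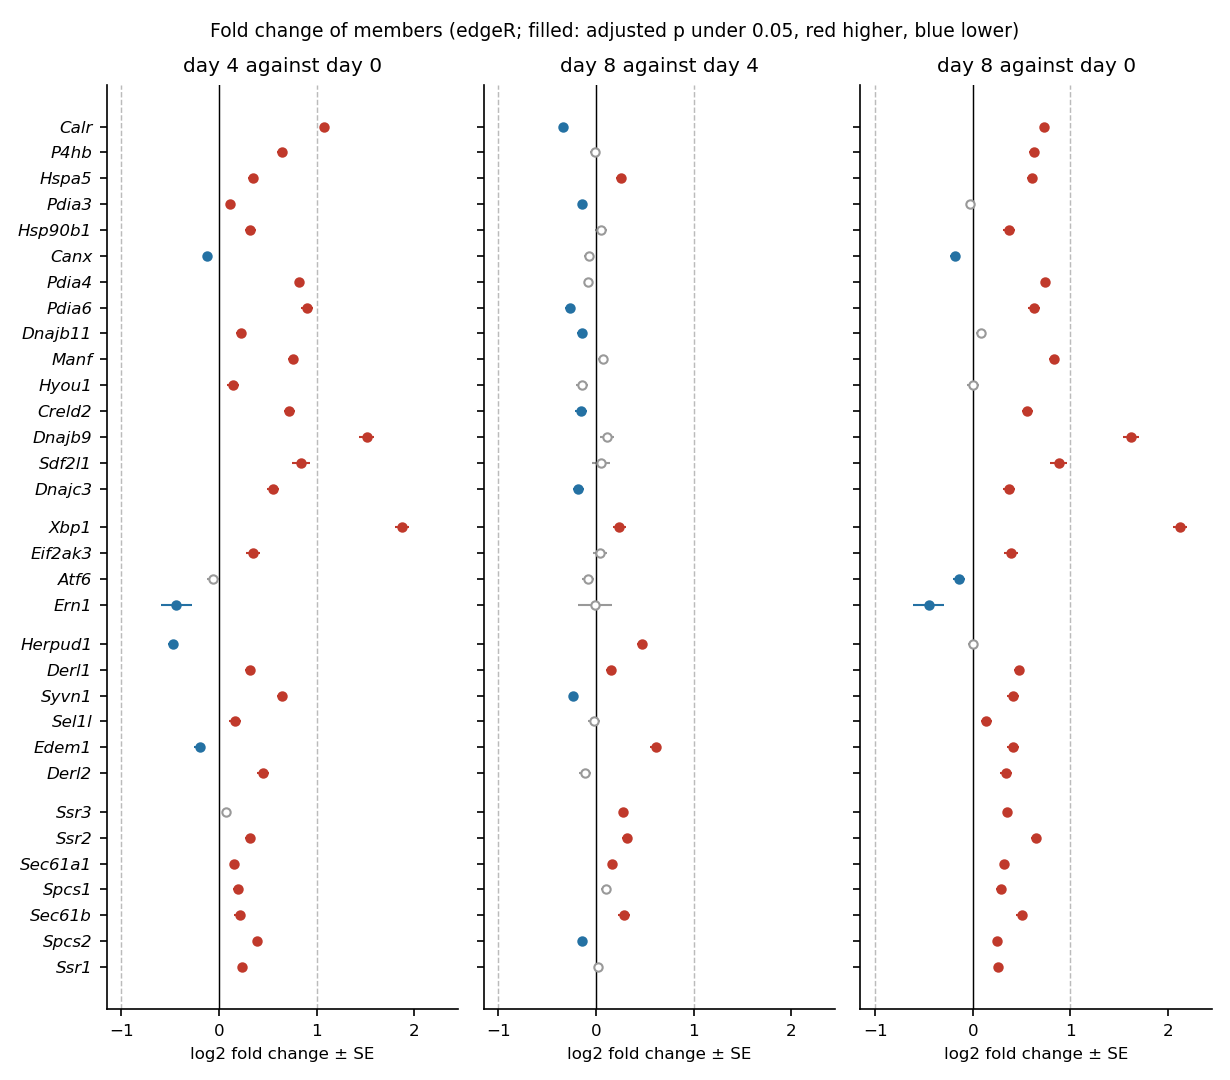
Log2 fold changes of the 32 tested members with standard errors in the early, late and whole comparisons (dashed lines at 2-fold; filled red higher, filled blue lower, open not past an adjusted p of 0.05). Early, 26 points are filled red, late changes scatter around 0, and Xbp1 and Dnajb9 stand beyond the dashed line in the early and whole panels.

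Summed over their members, the folding genes took up 2173 ± 22.7 FPKM on day 0, 3214 ± 72.8 FPKM on day 4 and 2887 ± 72.7 FPKM on day 8 (SD, n = 3), or 0.5%, 0.71% and 0.642% of all FPKM. The samples of the 3 days did not overlap. Calr alone made 26.6% to 37.2% of this sum, and without it the rest was 1591 ± 18.9, 2046 ± 71 and 1993 ± 56.6 FPKM, so that day 4 and day 8 then lay within their spread. The sensor group summed to 45.78 ± 1.49, 104.9 ± 6.93 and 116.3 ± 4.12 FPKM. Xbp1 made 50.6% to 82.1% of it, and the 3 sensors without Xbp1 summed to 22.19 ± 1.14, 22.29 ± 2.42 and 21.52 ± 0.158 FPKM. This sum holds opposite early calls, Eif2ak3 being higher and Ern1 lower on day 4.

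The degradation genes summed to 211.3 ± 6.14, 220.8 ± 3.46 and 237.5 ± 8.09 FPKM, the samples of day 0 and day 4 overlapping and those of day 8 lying above both. The translocation genes climbed, 605 ± 11.3, 664.6 ± 13.7 and 746.6 ± 1.15 FPKM, with no overlap between days. All members together made 0.699%, 0.929% and 0.886% of the FPKM of the samples of day 0, day 4 and day 8. These sums carry no test.

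**Figure D4:**
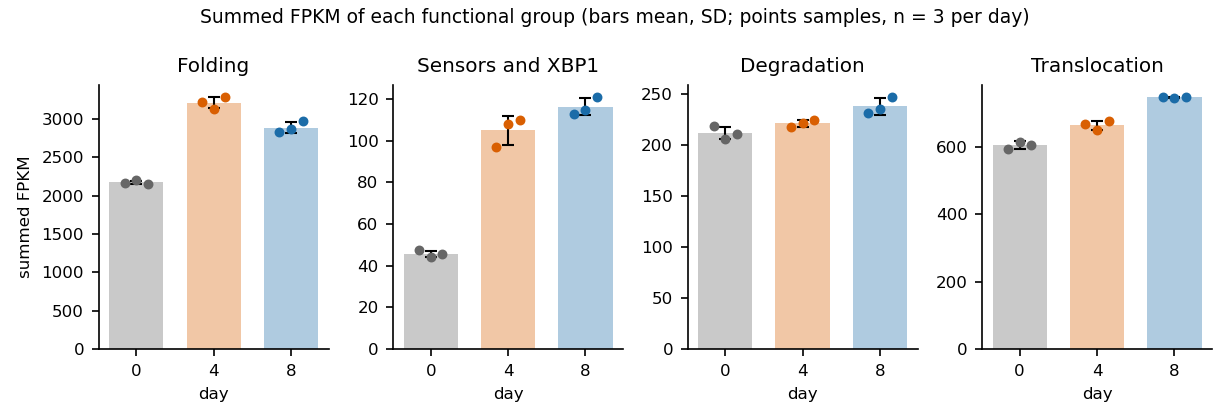
Summed FPKM of each functional group by day (bars mean, whiskers SD, points samples, n = 3 per day, axes from 0). Folding peaks on day 4 with 3214 FPKM, the sensor group steps up with Xbp1 from 45.78 to 104.9 FPKM, and translocation climbs to 746.6 FPKM on day 8.

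Members with and without an ERSE were set side by side as a description. Of the 8 tested members with an ERSE, 7 rose and 1 (Canx) fell in the early phase, with a median log2 fold change of 0.60. Of the 18 members with a window and no exact ERSE match, 14 rose and 3 fell, with a median of 0.23. The top risers Xbp1 and Dnajb9 were among them, as were Herpud1 and Dnajb11 with an ERSE-II. A window 1 base off the element, such as that of Pdia3, counted as having none. In the late phase the ERSE members had 1 rise and 5 falls (median -0.17), of which those of Dnajc3 and Creld2 were among the fragile calls. Those without had 5 rises (27.8%) and 3 falls (16.7%), with a median of 0.03, near the late shares of all genes tested (22.5% and 22.7%). These 3 falls were those of Pdia3, Dnajb11 and Spcs2, and each call was likewise lost in some of the alternatives. Of 28 other genes with an ERSE in the window, 13 were tested, and 4 rose (30.8%) and 4 fell (30.8%) early (median 0.07), near the 35.5% and 33.7% of all genes tested. Herpud1, with an ERSE-II, fell early, and Dnajb11, with an ERSE-II, rose.

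Further genes of the same pathways, from lists outside the 33, gave the surroundings. Of 34 other tested folding genes, 14 were higher and 9 lower early (median log2 fold change 0.04), 12 and 6 late (0.06), and 20 and 8 over the whole process (0.24). The early shares of 41.2% and 26.5% were near those of all genes tested (35.5% and 33.7%). Late, 35.3% were higher and 17.6% lower, beside 22.5% and 22.7% of all genes. Over the whole process 58.8% were higher and 23.5% lower, beside 34.8% and 36.2% of all genes. The early median lay below the 0.64 of the member chaperones, a difference that was not tested. Erp29, a chaperone of secretory cargo, rose from 54.09 ± 1.48 to 95.39 ± 9.86 FPKM (SD, n = 3) between day 0 and day 4. The collagen-linked proline isomerase Fkbp14 rose by 0.95 on the log2 scale, and Uggt2, of the glucosyltransferase family that checks glycoprotein folding, fell by 1.16.

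The largest late change in that list was in Ero1l, the oxidase that recharges disulfide isomerases. It stood at 56.81 ± 6.88 FPKM on day 0, 44.38 ± 3.78 on day 4 and 232.1 ± 50.5 on day 8 (SD, n = 3), a late log2 fold change of 2.43 (SE 0.13; edgeR, adjusted p = 4.3e-10). Fkbp11 rose from 6.35 ± 0.563 to 16.23 ± 0.866 FPKM (SD, n = 3) in that phase, and the collagen chaperone Serpinh1 by 0.66 on the log2 scale.

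Of 18 other tested stress-signalling genes, 3 were higher and 10 lower early (median -0.17), 10 higher and 4 lower late (0.17), and 7 and 7 over the whole process (0.00). The early falls (55.6%) and late rises (55.6%) stood above the shares of all genes tested (33.7% lower early, 22.5% higher late). The early rises (16.7%) stood below the share of all genes (35.5%). The 4 late falls (22.2%, all genes 22.7%) and the whole-process counts (38.9% each, all genes 34.8% and 36.2%) were near those of all genes. Atf3, a stress-induced transcription factor, fell by 2.63 on the log2 scale early and then rose by 2.24. Trib3, a pseudokinase induced through ATF4, measured 59.02 ± 0.517, 19.81 ± 0.714 and 70.49 ± 4.33 FPKM (SD, n = 3). Ppp1r15a, the phosphatase subunit GADD34 that undoes the block of translation by PERK, had log2 fold changes of -1.71 and 1.31, and Ddit3, which encodes CHOP, of -1.12 and 1.23. Atf4, the factor translated on PERK activity, measured 289.7 ± 7.32, 189.6 ± 9.05 and 312.8 ± 6.03 FPKM. Atf3, Trib3, Ppp1r15a, Ddit3 and Atf4 had their low point on the day on which Herpud1 and Edem1 were lowest and Calr was highest. Over the whole process the largest changes were in Bax (-0.78), Crebrf (-0.74) and Creb3l1 (0.72).

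Of 26 other tested degradation genes, 12 were higher, 1 lower and 13 not past the test in the early phase (median 0.14). In the late phase 2 were higher, 12 lower and 12 not past the test (-0.14), and over the whole process 8 were higher and 3 lower (0.06). In this list 46.2% were higher and 3.85% lower early, beside 35.5% and 33.7% of all genes tested. Late, 7.69% were higher and 46.2% lower (all genes 22.5% and 22.7%). Over the whole process the shares were 30.8% and 11.5% (all genes 34.8% and 36.2%). The ubiquitin-conjugating enzyme Ube2g2 rose by 1.39 on the log2 scale and then fell by 0.67, and the ligase Rnf5 rose by 0.88 early. Rhbdd1, a rhomboid protease of the membrane, fell by 0.75 and then rose by 0.50. The late falls included Os9 (-0.32), a lectin that delivers glycoproteins to HRD1, and Erlec1 of like function had a whole change of 0.47.

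Of the other translocation genes, 19 were higher and 5 lower of 30 in the early phase, with a median of 0.22 beside 0.21 for the members. In the late phase 6 were higher and 4 lower (0.04), and over the whole process 18 and 2 (0.20). The shares higher early and over the whole process (63.3% and 60%) stood beside 35.5% and 34.8% of all genes tested, and the late shares (20% and 13.3%) beside 22.5% and 22.7%. Lower were 16.7% early and 6.67% over the whole process, beside 33.7% and 36.2% of all genes. Bcap31, which escorts membrane proteins out of the reticulum, rose by 0.70 early, and Dad1 of the oligosaccharyltransferase by 0.65. Tram2 fell by 1.30. Late changes were found in Krtcap2 (0.49), Stt3b (-0.34) and Bcap29 (-0.37).

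**Figure D5:**
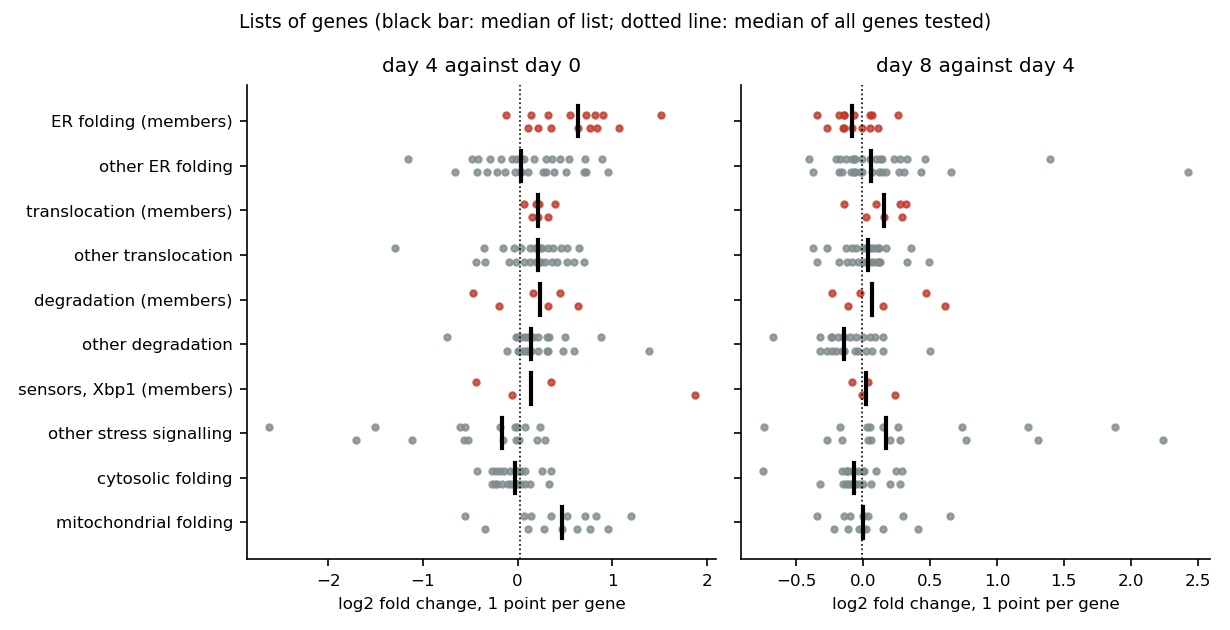
Log2 fold changes in the early phase and the late phase for the 4 member groups (red) and for further genes of the same and of other compartments (grey), 1 point per gene, with the median of each list (black bar) and that of all genes tested (dotted line). The member folding genes have the highest early median (0.64), and the other stress-signalling genes reach -2.63 early and 2.24 late.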

How the data were processed

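Mapping used HISAT/Bowtie2 after a filter on read quality, adaptors and N content, and genes were counted with RSEM. The authors deposited expected counts, which are RSEM estimates that were not normalized and need not be whole numbers, and the authors' FPKM, scaled to transcript length and to depth. Genes below 0.01 FPKM are not listed and were set to a count of 0. The labels name CASAVA 1.4 and Bowtie2 and a BGIseq500 kit, the methods an Illumina platform. The genome build and the strand of counting are not given in the sources used here. Per the files, 19040 of 19094 gene IDs matched the reference table.

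Expected counts were rounded and tested in R 4.3.3 with edgeR 4.0.16: filterByExpr by day, TMM factors, and a quasi-likelihood test (glmQLFit, glmQLFTest) with all 9 samples, 1 coefficient per day and no covariate. P-values were adjusted over all 13154 genes by the Benjamini-Hochberg method. The common biological coefficient of variation was 0.0538. A call needed an adjusted p under 0.05. The stricter rule, the study's own, adds a fold change above 2. Ratios were compared by exact permutation. Alternatives were RLE factors, library size alone, DESeq2 1.42.0, edgeR's exact test, limma 3.58.1 on log2(FPKM + 1) and log2(FPKM + 0.1), 2 other filters, a replicate block, and leaving out each sample. The fits were tested on simulated data. The members and lists were chosen with earlier results of these data known. All 33 members were reported, and of each further list up to 3 genes with the largest called change per comparison at an average log2 CPM of at least 1. Ddit3, Atf4 and the members of the marker lists were added for their known role. Replicates differed beyond counting noise, and none were merged. Promoter windows came from RefSeq (GRCm38.p6), and shared 50-base stretches from GENCODE vM21 transcripts. No member shared over 20% of its stretches. Exons of Spcs1 (16.3%) and Ssr2 (12.8%) overlap an antisense gene most.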

Additional observations from a re-analysis of the deposited data

How the results depend on the processing

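Of 1728 member values over the alternatives, 1581 kept direction and side of the threshold, 86 lost the call, 18 gained one and 43 changed sign. The cause of these changes was not tested. Members called lower early numbered 4, and 2 to 4 without 1 sample. Those called lower late numbered 8, but 5 under DESeq2 and 4 to 9 without 1 sample. Those called lower over the whole process numbered 3, but 5 with library size alone and with limma on log2(FPKM + 1) or log2(FPKM + 0.1), and 1 to 3 without 1 sample. Scaling by library size alone moved the whole-process median of all genes to -0.129 and limma on log2(FPKM + 0.1) to -0.125. As TPM, the log2 ratio of day means of the folding sum was 0.51 early and 0.36 whole (0.56 and 0.41 as FPKM), that of degradation 0.00 early (0.06), that of translocation 0.08 early and 0.25 whole (0.14 and 0.30), and that of all members 0.41 and 0.34 (0.47 and 0.39).

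The sign changes were all in values that did not pass in the main test. Late P4hb (-0.01) became 0.01 with RLE and DESeq2 and ran from -0.03 to 0.02 without 1 sample. Whole Dnajb11 (0.08) became -0.04 with library size alone and -0.03 with both limma fits. Late Sdf2l1 (0.05) became -0.05 to 0.11 without 1 sample, the lowest without day 4 replicate 1. Whole Hyou1 (-0.00) became 0.01 with RLE and DESeq2, 0.0027 without a filter, 0.0047 with at least 10 counts in every sample, and ran from -0.04 to 0.05 without 1 sample. Late Ern1 (-0.01) became 0.01 with RLE and DESeq2 and ran from -0.20 to 0.15 without 1 sample. Late Eif2ak3 (0.04) became -0.01 with library size alone, -0.0034 and -0.0033 with the limma fits and ran from -0.05 to 0.11 without 1 sample. Whole Herpud1 (-0.00) became 0.01 with RLE, DESeq2 and both other filters and ran from -0.02 to 0.05 without 1 sample. Late Sel1l (-0.02) became 0.0027 with RLE and DESeq2 and ran from -0.04 to 0.05 without 1 sample. Late Ssr1 (0.02) became -0.02 with library size alone and both limma fits.

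The replicate numbers gave no pairing. Deviations of same-numbered samples correlated at a mean of 0.0308 (-0.0348 to 0.075 over 9 pairs). With the replicate block, 26 members were higher and 4 lower early, 9 and 8 late, and 25 and 2 over the whole process, and late Ern1 was 0.0025.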

Other observations

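Folding genes outside the endoplasmic reticulum were counted in the same way. Of 25 tested cytosolic chaperones and co-chaperones, 4 were higher and 9 lower early (median log2 fold change -0.03), 4 and 5 late (-0.07), and 3 and 11 over the whole process (-0.09). Among all genes tested, 35.5% were higher and 33.7% lower early, 22.5% and 22.7% late, and 34.8% and 36.2% over the whole process. The cytosolic shares lower early (36%) and late (20%) were near these, and the share higher was 16% early and 16% late. Over the whole process 12% were higher and 44% lower. Hsph1, an Hsp110 exchange factor, measured 29.53 ± 2.28 FPKM on day 0, 20.91 ± 0.186 on day 4 and 20.28 ± 0.248 on day 8 (SD, n = 3). Cct2 of the chaperonin TRiC fell by 0.32 on the log2 scale late and by 0.55 over the whole process. The small heat shock protein Cryab rose by 0.33 early and fell by 0.75 late, Dnajb1 rose by 0.29 late, and the cofactor Bag1 rose by 0.35 early and by 0.55 over the whole process.

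Of 15 tested mitochondrial chaperones and proteases, 10 were higher and 2 lower on day 4 (median 0.47), 4 and 3 late (0.00), and 10 and 0 over the whole process (0.50). The 66.7% higher early and over the whole process stood above the all-gene shares, and the late 26.7% and 20% near them. Lower were 13.3% early and 0% over the whole process, beside 33.7% and 36.2% of all genes. Clpx, the unfoldase of the matrix protease, rose by 1.20 early and fell by 0.34 late. Grpel1, the exchange factor of the matrix Hsp70, rose by 0.95, and the prohibitin Phb by 0.83. Lonp1, the matrix protease, and Hspa9, the matrix Hsp70, rose late by 0.65 and 0.41 after lower values on day 4, with Lonp1 at 98.01 ± 4.88, 63.67 ± 2.19 and 96.89 ± 5.34 FPKM (SD, n = 3).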
